A study of Mus musculus with 8 samples.

Results

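Heparan sulfate sulfotransferases are the enzymes that place sulfate groups on heparan sulfate, and the messages of 10 of their genes were followed on 8 arrays of mouse ovarian follicular cells. The genes were Ndst1, Ndst2, Hs2st1, Hs6st1, Hs6st2, Hs3st1, Hs3st2, Hs3st3a1, Hs3st3b1 and Hs3st6, among 24235 genes with an Entrez ID on the array. They were chosen by membership of the enzyme family and found by Entrez ID, with earlier results of these arrays known, in which Hs3st6 already stood out for its E2 differences. The values of Hs3st6 in any comparison, and those of all members for E2 with control siRNA and for the difference of the E2 effects, are therefore given as a description without a p-value. The other 5 genes of the same family, Ndst3, Ndst4, Hs3st4, Hs3st5 and Hs6st3, were read alongside.

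The study asked how the transcription factor FOXL2, needed for granulosa cell identity, shapes the response to the estrogen 17β-estradiol (E2). Primary follicular cells, described as mostly granulosa cells, were grown from dissected ovaries of Swiss females, 8 weeks of age, 5 animals to a pool and 1 pool to a replicate, and were lysed after 9 days in culture. In every group the cells were transfected with 12 pmol of siRNA and 200 ng of pDsRed plasmid by Lipofectamine and kept in hormone-free medium with charcoal-treated serum. Cells under each siRNA were split between vehicle and 100 nM E2, which makes 4 groups of 2 arrays, with 24 h of siRNA and then 10 h of E2 or vehicle before lysis, as the study's text orders them. The control siRNA was a non-targeting pool and the FOXL2 siRNA a pool against Foxl2. A transient siRNA lowers a message in the cells it reaches, and bulk RNA holds whichever other cells the culture keeps. The 2 replicates of a group were independent cultures from different animals.

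Heparan sulfate is a long sugar chain attached to core proteins at the cell surface and in the extracellular matrix. The NDST enzymes exchange acetyl for sulfate groups on the nitrogen of glucosamine, which opens the way for sulfation of the neighbouring uronic acid by Hs2st1, of the outer position of glucosamine by the Hs6st enzymes and, most rarely, of a further position by the Hs3st enzymes. The resulting pattern decides which growth factors, morphogens and protease inhibitors can bind. Hs3st1 makes the binding site for antithrombin, and granulosa cells are known to produce such anticoagulant chains around the ovulatory follicle.

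Signals are given as log2 values after scaling by the 75th percentile of the array, 275 to 367 units before scaling. Per array, 51.4 to 55.6% of the probes stood well above background, and 0 probes were saturated. Replicates correlated across genes with Pearson's r of 0.989 to 0.992. Signals of different genes come from different probes and are not compared with each other. Tests are those of limma over the 15692 genes whose median signal after scaling was 10 units or more, with Benjamini-Hochberg adjustment. A gene is called at an adjusted p under 0.05. This fit leaves out the replicate number. Replicate deviations correlated between groups by 0.32 to 0.44, and the first fit counts that shared part as spread. A second fit took the number as a block, in which 4331 genes were called over both treatments against 1968. Calls are those of the first fit unless the block is named.

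By its gene value, Foxl2, the targeted gene, was not lower on the arrays labelled FOXL2 siRNA. Its signal lay between 12.80 and 13.50 on the 4 control siRNA arrays and between 13.00 and 13.45 on the 4 FOXL2 siRNA arrays, a log2 difference of 0.18 (SE 0.10, limma adjusted p = 0.334). Its 2 probes disagreed: the dimmer probe was lower by a log2 difference of -0.97 (adjusted p = 0.0200 in the limma fit of single probes), and the brighter one, which sets the gene's value, differed by 0.18. Sox9, a gene of Sertoli cells that FOXL2 keeps low in granulosa cells, was higher by 2.05 (SE 0.15, limma adjusted p = 0.0003). By qPCR of follicular cells, the study reports a lower Foxl2 message with its FOXL2 siRNA pool. The groups are called by their labels below. The E2 labels carry a second doubt. Cbs and Angpt2, which the study describes as raised by E2 in cells with FOXL2, had lower signals on the arrays labelled control siRNA with E2 than on those labelled control siRNA with vehicle, by log2 differences of -2.11 and -1.25. The direction of the E2 difference with control siRNA is therefore opposite to the study's for these genes. The same caution belongs to every E2 difference with control siRNA given here. By limma, 0 genes were called higher and 3 lower for E2 with control siRNA, and 2 higher and 0 lower with FOXL2 siRNA. The study reports mostly activated genes after E2, by its fold rule. The mean FOXL2 siRNA difference over both treatments does not depend on which control arrays received E2. For the separate treatments, each FOXL2 siRNA group was compared with both control groups.

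Of the 10 members, 8 were detected, each well above background on all 8 arrays. Hs3st2 and Hs3st3b1, which make 3-O-sulfated sites that bind the herpes simplex glycoprotein D rather than antithrombin, were not well above background on any array, and their log2 signals reached at most 2.06 and 1.77. Their levels have only an upper bound here and were not tested. Among the family genes that are not members, Ndst4 was well above background on all 8 arrays, and Ndst3, Hs3st4, Hs3st5 and Hs6st3 were so on 0 arrays. The filter on signal kept the same 8 members and Ndst4.

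**Figure D1:**
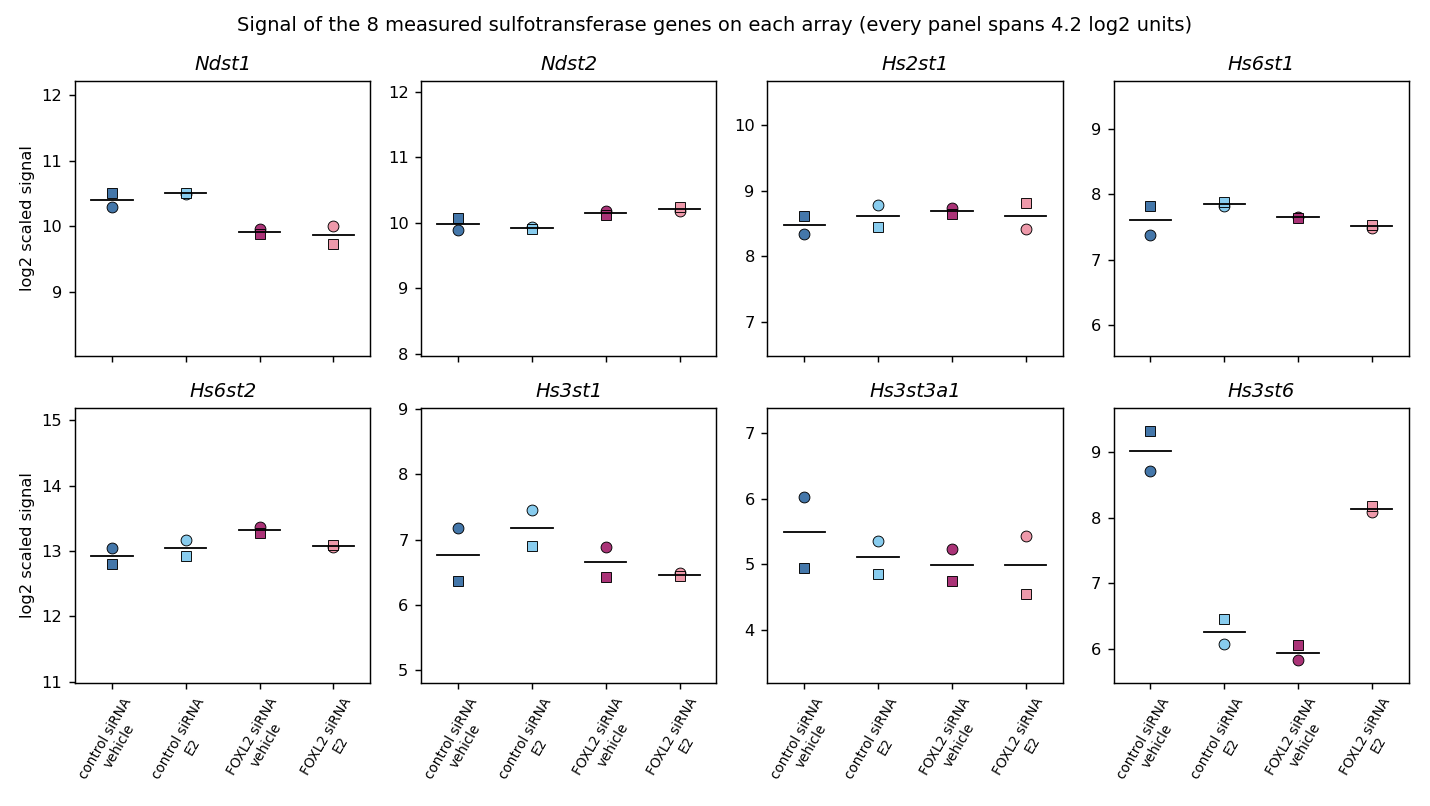
Log2 scaled signal of the 8 detected members on each of the 8 arrays, with replicate 1 as a circle, replicate 2 as a square and the mean of the 2 arrays as a line. Hs3st6 moves between about 5.83 and 9.33, and the Ndst1 points of all 4 FOXL2 siRNA arrays lie below those of all 4 control siRNA arrays. Every panel spans the same number of log2 units.

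Hs3st6, a 3-O-sulfotransferase of the glycoprotein D type, had the widest range of the 8 members on the log2 scale. It was 8.71 and 9.33 on the 2 arrays of control siRNA with vehicle. It was 6.07 and 6.45 with control siRNA and E2. With FOXL2 siRNA it was 5.83 and 6.05 with vehicle. With FOXL2 siRNA and E2 it was 8.09 and 8.19. The 4 groups did not overlap, and 2 of them were high while the other 2 were low. In falling order the means were 9.02 ± 0.43 (SD, n = 2) for control siRNA with vehicle, 8.14 ± 0.07 for FOXL2 siRNA with E2, 6.26 ± 0.27 for control siRNA with E2 and 5.94 ± 0.16 for FOXL2 siRNA with vehicle. The 2 low groups lay close to each other: their mean difference of -0.32 (SE 0.23) was within the sum of their SDs. The 2 high groups differed by -0.88 (SE 0.23).

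By the labels, Hs3st6 was lower with E2 than with vehicle under control siRNA, by a log2 difference of -2.76 (SE 0.23), which is 0.148 of the vehicle level. Under FOXL2 siRNA it was higher with E2, by 2.20 (SE 0.23) or 4.58-fold. The difference between these E2 effects was 4.95 (SE 0.32). Read the other way, FOXL2 siRNA against control siRNA was -3.08 with vehicle and 1.88 with E2, so that the mean over both treatments, -0.60 (SE 0.16), averages values of opposite sign as labelled. With the treatment labels of the control arrays exchanged, FOXL2 siRNA against control siRNA would be -0.32 with vehicle and -0.88 with E2, both of the sign of that mean, and the difference between the E2 effects would be -0.56 (SE 0.32). The E2 difference with control siRNA rests on the labels of the 4 control arrays, on which Cbs and Angpt2 ran against the study's description. Under FOXL2 siRNA, Cbs (1.31), Angpt2 and Hs3st6 were all higher with E2, and the median of Cbs and Angpt2 was 1.62. The single probe of Hs3st6 was well above background on all 8 arrays, so no part of its range is set by the detection limit.

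For E2 with control siRNA, 1 of the 8 members, Hs3st6, was past the limma threshold, where 0.0191% of all genes tested were called in either direction. For the difference of the E2 effects, 1 member was past it, again Hs3st6, where 0.242% of all genes were called. Nothing is read from either count, since Hs3st6 was known from these contrasts. For E2 with FOXL2 siRNA, 0 members were called by limma, where 0.0127% of all genes were called. An unadjusted limma p under 0.05 was found for 1 member, Hs3st6, and for 479 of all 15692 genes tested. The remaining 7 members had log2 differences between -0.24 and 0.06 for E2 with FOXL2 siRNA, and between -0.39 and 0.41 for E2 with control siRNA. The ends of the second range belong to Hs3st3a1 and Hs3st1, which also had the largest standard errors of the 8 (0.45 and 0.31).

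**Figure D2:**
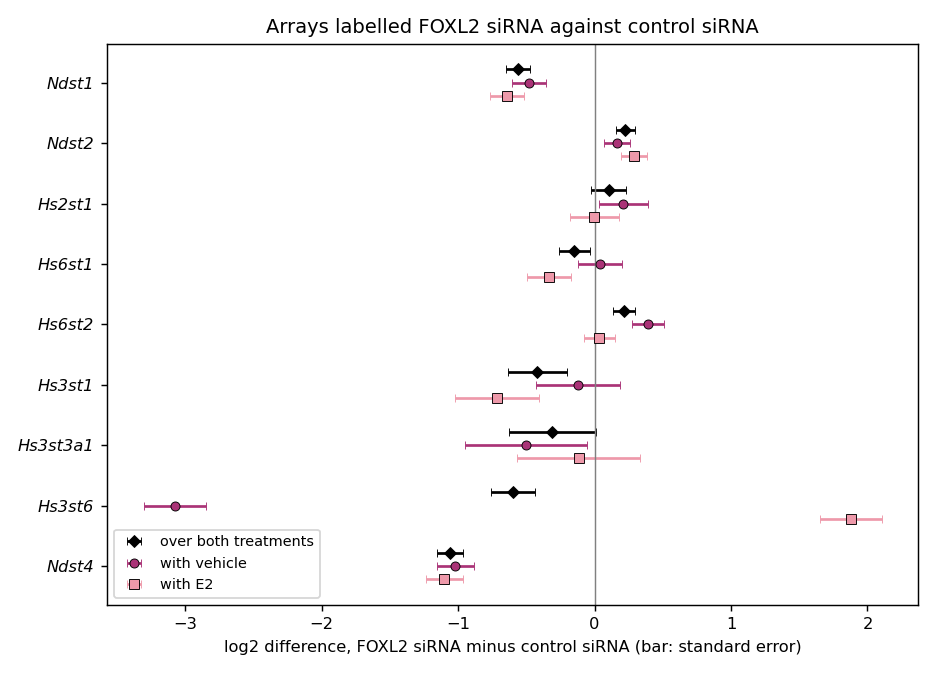
Log2 difference between FOXL2 siRNA and control siRNA arrays for the 8 detected members and Ndst4, over both treatments (diamonds), with vehicle (circles) and with E2 (squares). Bars are standard errors from the limma fit of 4 groups of 2 arrays. Ndst1 and Ndst4 are below 0 in all 3 comparisons, while Hs3st6 goes from -3.08 with vehicle to 1.88 with E2.

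Among the NDST genes, whose enzymes act first on the chain, Ndst1 was called lower with FOXL2 siRNA over both treatments. Ndst2 was not called by the first fit and was called higher with the replicate block. Ndst1, the widely expressed form of the enzyme, was 10.29 and 10.51 with control siRNA and vehicle and 10.49 and 10.51 with control siRNA and E2. It was 9.96 and 9.87 with FOXL2 siRNA and vehicle and 10.00 and 9.72 with FOXL2 siRNA and E2. All 4 FOXL2 siRNA arrays were below all 4 control arrays. Ndst1 fell by 0.56 on the log2 scale (SE 0.09, limma adjusted p = 0.0057), to 0.678 of the control level. With E2 the difference was -0.64 (SE 0.12, limma adjusted p = 0.0305), and with vehicle -0.48 (SE 0.12, limma adjusted p = 0.0644), which missed the threshold. The vehicle difference passed with the replicate block (limma adjusted p = 0.0096). Against the control group of the other treatment, FOXL2 siRNA with vehicle was lower by -0.58 (limma adjusted p = 0.0420) and FOXL2 siRNA with E2 was at -0.54 (limma adjusted p = 0.0531). The call over both treatments was kept under all 10 other processing choices tried and whichever array was left out, with log2 differences between -0.63 and -0.47. The call with E2 was lost when any of 5 arrays was left out: either array of control siRNA with E2 (adjusted p = 0.156 and 0.154), either array of FOXL2 siRNA with vehicle (0.0529 and 0.0532) or replicate 2 of FOXL2 siRNA with E2 (0.182). The call was also lost with no filter on signal (adjusted p = 0.0502), with probes averaged on the log2 scale (0.0925), with no intensity trend (0.0768) and with only the groups compared in the fit (0.0658). The call of FOXL2 siRNA with vehicle against control siRNA with E2 was lost without any 1 of the 4 arrays compared (adjusted p between 0.122 and 0.204).

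The 3 Ndst1 probes were each well above background on 8 arrays. Over both treatments their log2 differences were -0.58, -0.42 and -0.40. The first and brightest, A_52_P79947, was called in the limma fit of single probes (adjusted p = 0.0078), and A_66_P114614 (adjusted p = 0.208) and A_52_P135469 (adjusted p = 0.0837) were not. The gene value, a mean on the linear scale, is set mostly by the brightest probe.

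Ndst2, the form that mast cells use for heparin, had the opposite sign. Its log2 signal lay between 9.89 and 10.08 on the 4 control arrays and between 10.12 and 10.24 on the 4 FOXL2 siRNA arrays. The arms did not overlap, and the difference of 0.23 (SE 0.07, limma adjusted p = 0.0752) missed the threshold. It passed with the replicate block (limma adjusted p = 0.0218).

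Ndst4, the family gene outside the 10 members that was detected, differed more than any detected member over both treatments. Its log2 signal was 7.60 and 7.65 with control siRNA and vehicle and 7.51 and 7.63 with control siRNA and E2. It was 6.61 and 6.60 with FOXL2 siRNA and vehicle and 6.39 and 6.55 with FOXL2 siRNA and E2. The lowest control array was above the highest FOXL2 siRNA array, and the spread within either arm was at most 0.10 (SD, n = 4). Ndst4 fell by 1.06 (SE 0.10, limma adjusted p = 0.0007), and it was called with vehicle (-1.02, limma adjusted p = 0.0061) and with E2 (-1.10, limma adjusted p = 0.0062). Both of its probes were called over both treatments, with log2 differences of -1.13 and -1.03. Its E2 differences were -0.05 with control siRNA and -0.13 with FOXL2 siRNA. The study lists Ndst4 among the FOXL2 targets of its other array experiment.

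**Figure D3:**
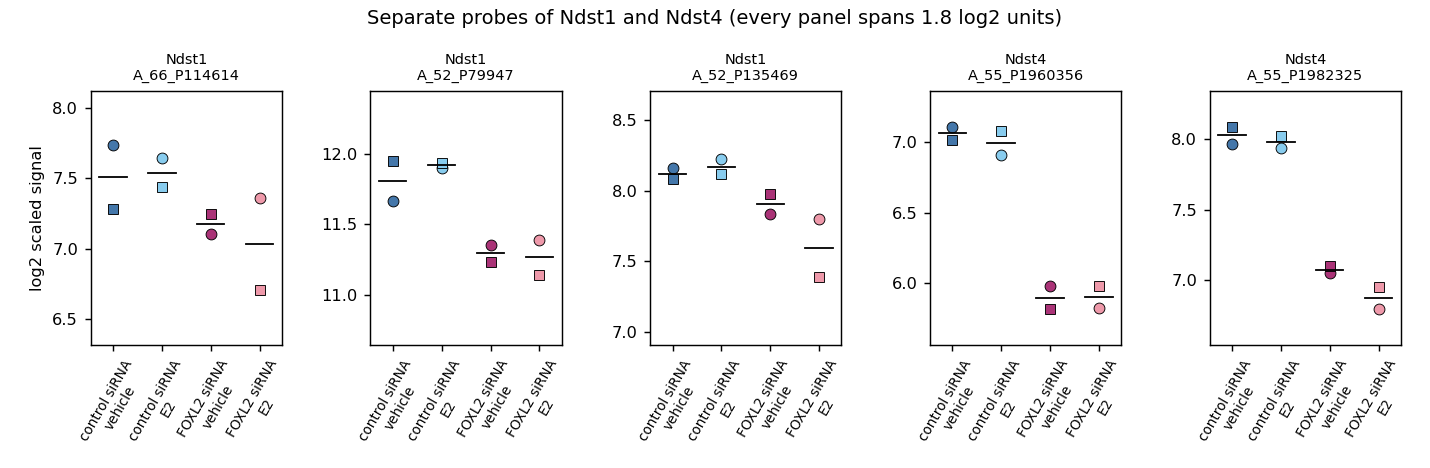
Log2 scaled signal of the 3 probes of Ndst1 and the 2 probes of Ndst4 on each array, with replicate 1 as a circle, replicate 2 as a square and the group mean as a line. The FOXL2 siRNA arrays are on the right of each panel and have the lower mean for every probe. For A_66_P114614 one FOXL2 siRNA array with E2 lies above one control array.

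Hs2st1, the single gene for 2-O-sulfation of uronic acid, lay between 8.34 and 8.78 on the control arrays and between 8.42 and 8.82 on the FOXL2 siRNA arrays. The arms overlapped almost wholly, with a difference of 0.10 (SE 0.13, limma adjusted p = 0.668). Its differences in the other comparisons were between -0.21 and 0.21.

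The 6-O-sulfotransferases were both detected. Hs6st2 lay between 12.81 and 13.16 on the control arrays and between 13.06 and 13.36 on the FOXL2 siRNA arrays. With vehicle, both FOXL2 siRNA arrays (13.36 and 13.28) were above both control arrays (13.05 and 12.81), a difference of 0.39 (SE 0.11, limma adjusted p = 0.0976). The mean of both treatments gave 0.21 (SE 0.08, limma adjusted p = 0.137). Neither value passed the threshold, and both did with the replicate block (limma adjusted p = 0.0080 with vehicle and 0.0233 over both treatments). Hs6st1 lay between 7.38 and 7.88 on the control arrays and between 7.49 and 7.66 on the FOXL2 siRNA arrays, and the difference was -0.15 (SE 0.11, limma adjusted p = 0.471). Its 2 probes disagreed in sign, at -0.19 for the bright A_51_P167048 and 0.76 for the dim A_55_P2097414, and neither was called. The dim probe was well above background on 6 of the 8 arrays.

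Of the 3-O-sulfotransferases besides Hs3st6, Hs3st1 and Hs3st3a1 were detected. Hs3st1, the antithrombin-type enzyme, was 7.18 and 6.36 with control siRNA and vehicle and 7.46 and 6.90 with control siRNA and E2. It was 6.88 and 6.42 with FOXL2 siRNA and vehicle and 6.48 and 6.44 with FOXL2 siRNA and E2. The replicates of a group lay up to 0.82 apart, and replicate 1 was the higher array in all 4 groups. The mean of both treatments gave -0.42 (SE 0.22, limma adjusted p = 0.278). With E2, where the 2 groups did not overlap, the difference was -0.72 (SE 0.31, limma adjusted p = 0.303). With the replicate block both passed the threshold (limma adjusted p = 0.0284 and 0.0180). The study lists Hs3st1 among the FOXL2 targets of its other array experiment. Hs3st3a1 was likewise higher on replicate 1 in all 4 groups, from 6.03 against 4.95 with control siRNA and vehicle to 5.43 against 4.54 with FOXL2 siRNA and E2. Its difference was -0.31 (SE 0.32, limma adjusted p = 0.600), within the spread of the replicates.

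Counted over the 7 detected members other than Hs3st6, FOXL2 siRNA against control siRNA over both treatments gave 1 call, Ndst1, lower, where 12.5% of all genes tested were called in either direction. The median log2 difference of the 8 detected members, Hs3st6 included, was -0.23, beside 0.00 over all genes. Among the 7 without Hs3st6, the middle value was that of Hs6st1, -0.15. With vehicle, 0 of these 7 were called by limma, where 6.52% of all genes were. An unadjusted limma p under 0.05 was found for 2 of the 7, and for 3085 of all 15692 genes tested. With E2, 1 of 7 was called, Ndst1, lower, where 4.38% of all genes were. For FOXL2 siRNA with vehicle against control siRNA with E2, 1 of 7 was called, Ndst1, where 4.66% of all genes were. For FOXL2 siRNA with E2 against control siRNA with vehicle, 0 of 7 were called by limma, where 4.81% of all genes were. There, 1 of the 7 and 2800 of all 15692 genes had an unadjusted limma p under 0.05. Hs3st6 was past the threshold over both treatments, with vehicle and with E2, and nothing is read from that, since it was known beforehand. These comparisons share arrays, so their counts are not separate evidence.

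Some markers of Sertoli cells, the testicular counterpart of granulosa cells, moved with the same siRNA labels. Of 7 Sertoli markers, all detected, 3 were called higher with FOXL2 siRNA over both treatments (Sox9, Sox8 and Dhh) and 4 were not called, beside 12.5% called over all genes in either direction. Dmrt1, one of those 4, lay the other way without overlap, between 6.56 and 7.29 on the control arrays and between 6.18 and 6.43 on the FOXL2 siRNA arrays (limma adjusted p = 0.0695). The summed signal of the list was 4468 to 5352 units on the control arrays and 7753 to 8799 on the FOXL2 siRNA arrays. Of 15 granulosa markers, 13 passed the filter, with 1 higher and 5 lower, while the summed signal of the list was 138664 to 148082 units on the control arrays and 156093 to 177243 on the FOXL2 siRNA arrays. In bulk RNA, fewer cells of a type and less RNA per cell cannot be told apart, and the part of these shifts in the Ndst1 and Ndst4 differences was not tested. Macrophage markers summed to between 1723 and 2236 units and oocyte markers to between 129 and 283 units over the 8 arrays, with the ranges of the 2 arms overlapping. By limma, 0 of the 5 macrophage and 0 of the 2 oocyte markers kept were called. Endothelial markers summed to 1137 to 1870 units on the control arrays and 1640 to 2016 on the FOXL2 siRNA arrays, with 0 of 2 called. Of 8 theca markers, 7 are on the array and 5 passed the filter, with Cyp11a1 higher and Hsd3b1 lower. The summed signal was 127805 to 152210 units on the control arrays and 101914 to 123343 on the FOXL2 siRNA arrays. The study states that follicular cells can luteinize in culture, and which cells gave these signals was not tested.

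The rest of heparan sulfate metabolism was read together with neighbouring genes, from lists of 66 detected genes. They make, carry, trim or bind heparan sulfate, make its sister chain, chondroitin sulfate, or code for coagulation proteins. Over both treatments, 6 of the 66 were higher and 11 lower with FOXL2 siRNA, which is 25.8% called, beside 12.5% over all genes. Of 13 chondroitin and dermatan sulfate enzymes, 1 was higher and 5 lower. Of 7 serpin and coagulation genes, 2 were higher and 2 lower. The lists of heparan sulfate itself had fewer calls for their size, so the pooled share is not a share for heparan sulfate genes alone. With vehicle and with E2 separately, 12.1% of the 66 were called each, beside 6.52% and 4.38%. The lists were chosen with earlier results known, and the counts of each list below are to be read beside the same 12.5%. A gene of these lists counts as detected if it passed the filter on signal, even where it was not well above background on every array. For E2 with either siRNA, 0 of the 66 were called by limma, and 3 had an unadjusted limma p under 0.05 with each siRNA. Over all 15692 genes tested, 479 had one with FOXL2 siRNA and 718 with control siRNA.

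Of 14 genes for the linkage region and the chain, 0 were higher and 2 lower, with a median log2 difference of -0.08, beside 0.00 over all genes. Ugdh, which makes the uronic acid donor, lay between 11.70 and 11.86 on the control arrays and between 11.24 and 11.39 on the FOXL2 siRNA arrays, a log2 difference of -0.45 (SE 0.07, limma adjusted p = 0.0055). Xylt2, which adds the first xylose to the core protein, fell by 0.23 (SE 0.06, limma adjusted p = 0.0409). Of 7 genes that supply activated sulfate, 0 were called by limma, with a median log2 difference of -0.08. An unadjusted limma p under 0.05 was found for 1 of them, and for 4201 of all 15692 genes tested.

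Of 11 genes that edit or degrade the finished chain, 1 was higher and 1 lower, with a median log2 difference of -0.14. Sulf2, which removes 6-O-sulfates outside the cell, lay between 13.28 and 13.44 on the control arrays and between 12.51 and 12.81 on the FOXL2 siRNA arrays, a log2 difference of -0.69 (SE 0.08, limma adjusted p = 0.0017). The arms were further apart than the spread within either. Sulf1, the related sulfatase gene, went the other way and was not called. It lay between 7.84 and 8.84 on the control arrays and between 8.77 and 9.87 on the FOXL2 siRNA arrays. Hpse was not called either. Its arms did not overlap, at 5.55 to 7.01 on the control arrays and 3.93 to 5.23 on the FOXL2 siRNA arrays. Sgsh, the lysosomal enzyme that removes N-sulfates, rose by 0.33 (SE 0.08, limma adjusted p = 0.0341).

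Of 14 detected core proteins, 2 were higher and 1 lower, with a median log2 difference of 0.14. Hspg2 (perlecan), a proteoglycan of basement membranes, rose by 0.62 (SE 0.12, limma adjusted p = 0.0130) and Agrn (agrin) by 0.30 (SE 0.08, limma adjusted p = 0.0416). Sdc1, a cell surface syndecan, fell by 0.30 (SE 0.07, limma adjusted p = 0.0232). Of 13 detected enzymes of chondroitin and dermatan sulfate, 1 was higher and 5 lower, with a median log2 difference of -0.34. Among the latter were Chst15 (-0.90, limma adjusted p = 0.0123), Csgalnact2 (-0.52, limma adjusted p = 0.0060) and Chst14 (-0.37, limma adjusted p = 0.0121), which act in sulfation or in starting the chain. Dsel, an epimerase of dermatan sulfate, rose by 0.53 (SE 0.08, limma adjusted p = 0.0046). Chst15 is among the FOXL2 targets that the study lists from its other array experiment.

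Of 7 detected genes for proteins of the heparin-binding serpin and coagulation group, 2 were higher and 2 lower, with a median log2 difference of 0.14. Serpine2 (protease nexin 1), whose inhibition of thrombin is speeded by heparan sulfate, lay between 11.88 and 12.40 on the control arrays and between 10.53 and 10.96 on the FOXL2 siRNA arrays, a log2 difference of -1.42 (SE 0.12, limma adjusted p = 0.0005). Serpina5, the protein C inhibitor, was called higher (limma adjusted p = 0.0027). It was not well above background on either array of control siRNA with E2, so the measured log2 difference of 1.52 includes a control level that is only a bound, and with E2 it was at least 3.63-fold higher with FOXL2 siRNA. With vehicle, where it was well above background on all 4 arrays, the difference was 1.16 (limma adjusted p = 0.0518). Thbd (thrombomodulin) rose by 0.56 (limma adjusted p = 0.0077) and Procr, the receptor of protein C, fell by 0.70 (limma adjusted p = 0.0328). The genes of this group that were called thus went both ways.

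**Figure D4:**
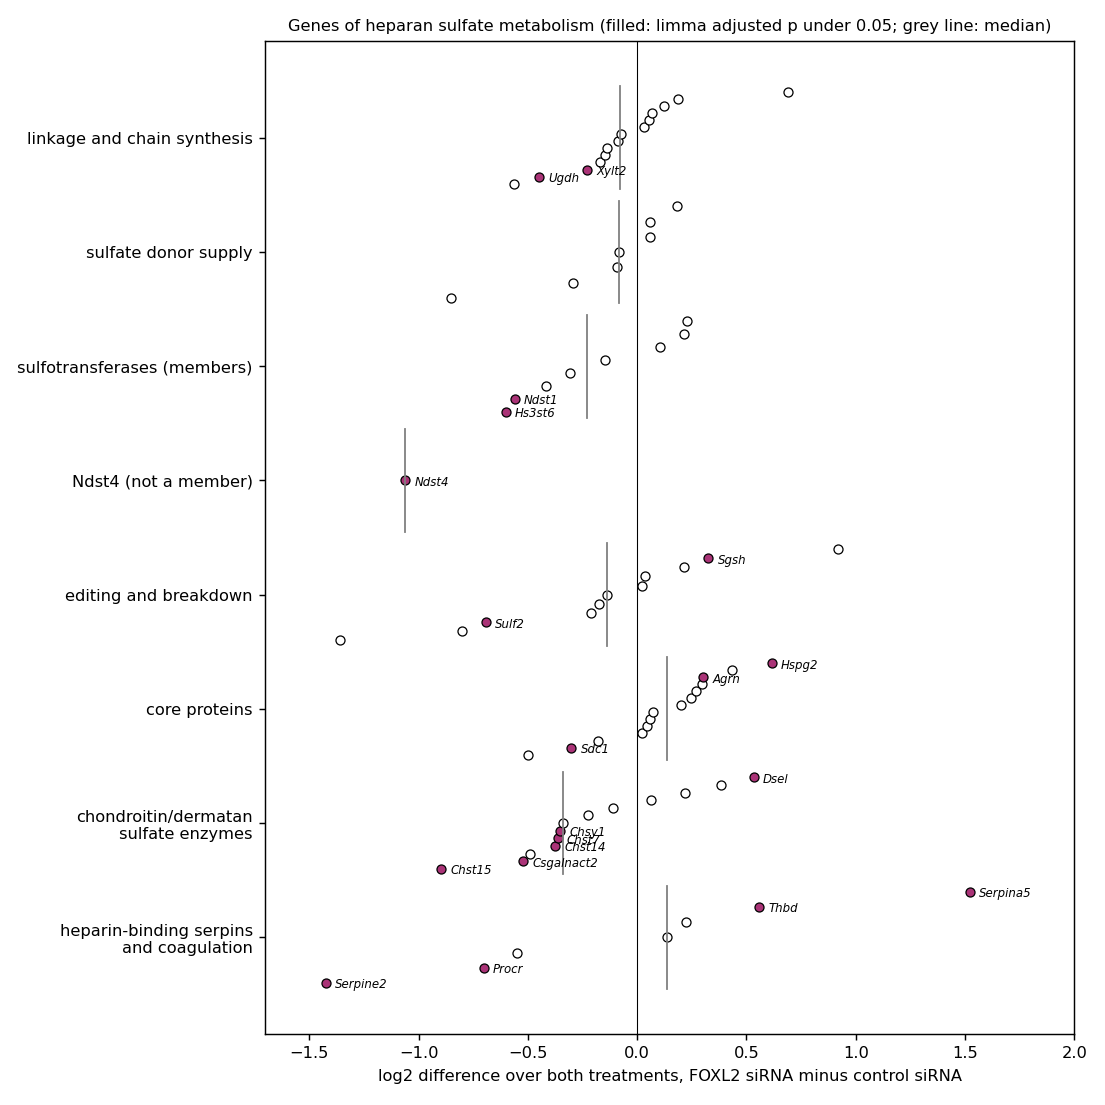
Log2 difference over both treatments, FOXL2 siRNA minus control siRNA, for the detected genes of each list, 1 point per gene. The lists cover heparan sulfate metabolism, chondroitin and dermatan sulfate enzymes, and heparin-binding serpins and coagulation. Filled points passed a limma adjusted p of 0.05 and are named, and the grey line is the list's median. The values run from Serpine2 at -1.42 to Serpina5 at 1.52, whose control level with E2 is only a bound, and 2 of the 8 members of the sulfotransferase list are filled.

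The genes whose pattern was most like that of Hs3st6 were found by Pearson's r over the 8 arrays, among 13396 genes well above background on at least 4 of them. They were Tgfa (r = 0.980), an EGF receptor ligand, Myh14 (0.974), a nonmuscle myosin, Slc25a28 (0.971), a mitochondrial iron carrier, Zbtb8b (0.965) and Gpam (0.963), which starts glycerolipid synthesis. All 5 had the higher group means with control siRNA and vehicle and with FOXL2 siRNA and E2, as Hs3st6 did. This pattern rests on the same E2 labels of the control arrays. With those labels exchanged, all 5 would be higher with E2 under both siRNAs. Their spans were smaller: the E2 difference with FOXL2 siRNA was 0.57 for Tgfa, 0.62 for Myh14, 0.41 for Slc25a28, 0.80 for Zbtb8b and 0.75 for Gpam, beside 2.20 for Hs3st6. The coefficients describe 8 arrays in 4 groups and were picked as the highest, so they carry no test.

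**Figure D5:**
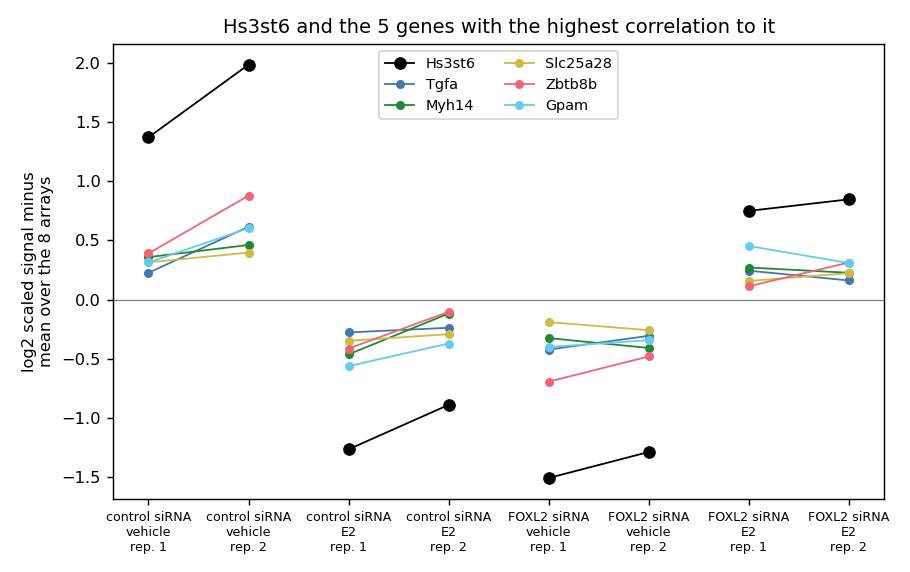
Log2 scaled signal of Hs3st6 (black) and of the 5 genes with the highest Pearson's r to it, each minus its own mean over the 8 arrays, with the 2 replicates of a group joined by a line. By the labels, all 6 genes are above 0 with control siRNA and vehicle and with FOXL2 siRNA and E2, and below 0 in the other groups.

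For Hs3st1 the 4 most alike genes were Aunip (r = 0.967), Nsd2 (0.957), Eci2 (0.942) and Slc35a3 (0.931). Slc35a3 carries UDP-N-acetylglucosamine, a building block of the chain, into the Golgi. The mean log2 differences of these genes over both treatments were between -0.30 and -0.08, beside -0.42 for Hs3st1, and the higher signal of replicate 1 in the Hs3st1 values enters these coefficients too.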

How the data were processed

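RNA of 8 cultures was hybridised to one-colour Agilent arrays, 1 per culture. Per the file headers, the deposited processed intensity of a spot is the signal after the scanner software's background subtraction and detrending, with no scaling between arrays. The authors' deposited table holds log2 values, which equalled the gene mean minus the array's 75th percentile within 0.01, after a shift common to an array, for 99.3 to 99.4% of genes. Its scale is log2, it is not centred, and it served as an alternative.

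Here, 3671 of 62976 spots were controls and 39 probes non-uniform, and these were left out. Intensities of the other 55642 probes were divided by the array's 75th percentile. Probes that the authors' table pairs with 1 Entrez gene were averaged before taking logs. A RefSeq table named 22352 of 24235 genes. It holds no promoter for Hs3st6, Ndst1 or Ndst4, so no sequence is shown. limma version 3.58.1 in R version 4.3.3 fitted 4 group means with an intensity trend and 4 residual degrees of freedom. The script was tested on simulated data. All members and the other family genes are named, with up to 3 higher and 3 lower called genes per further list, and the 5 genes closest to Hs3st6 and to Hs3st1. Some genes under this rule are left out of the text, and Sulf1 and Hpse, which were not called, are named besides. Members and lists were chosen with earlier results of these data known. Arrays have no read depth, and their number, 2 per group, limits the precision. Slide and scan were the same for all arrays.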

Additional observations from a re-analysis of the deposited data

Results flagged for a closer look

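Hs3st6 was singled out because its E2 arrays lay below both vehicle arrays with control siRNA and above both with FOXL2 siRNA. The E2 difference was -2.76 with control siRNA and 2.20 with FOXL2 siRNA, so the effects differed by 4.95 on the log2 scale (SE 0.32). The value depends on the E2 labels of the control arrays, on which Cbs and Angpt2 ran against the study's description, and with those labels exchanged it would be -0.56. Hs3st6 was known from this contrast when the family was chosen, so the value is a description. Nothing is read from its limma test. None of the other 7 detected members separated the arrays in opposite directions under the 2 siRNAs.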

How the results depend on the processing

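The number of members called over both treatments was 2, and it was 1 (Ndst1) with quantile normalization, with the median of each array subtracted, with no filter on low values, with the brightest probe of each gene, with probes averaged on the log2 scale and with no intensity trend. For FOXL2 siRNA with E2 it was 2, and 1 with no filter, with probes averaged on the log2 scale, with no intensity trend, with only the groups compared in the fit and by the study's rule, which asks for a log2 difference of at least 1 that is over 2 times the sum of both SDs. For E2 with control siRNA it was 1, and 0 without the intensity trend, with only the groups compared or with no filter. For E2 with FOXL2 siRNA it was 0, and 1 by the study's rule. For FOXL2 siRNA with vehicle against control siRNA with E2 it was 1, and 0 with no filter, with probes averaged on the log2 scale, with no intensity trend and by the study's rule. For FOXL2 siRNA with E2 against control siRNA with vehicle it was 0, and 2 with normexp background correction. The cause of these changes was not tested. Hs3st6 was the only member called with vehicle, here and with 1 array left out. The same held for E2 with either siRNA and for the difference of the E2 effects. Where 1 member was left for FOXL2 siRNA with E2 in these settings, it was Hs3st6 too. Nothing is read from those counts, since Hs3st6 was known beforehand.

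Leaving out 1 array at a time, the counts ranged from 1 to 2 over both treatments, from 0 to 2 with E2 and from 0 to 1 for E2 with FOXL2 siRNA, for E2 with control siRNA and for both cross comparisons, and stayed at 1 with vehicle and for the difference of the E2 effects. Of 1200 member values under the alternatives, the exchange of labels given last not counted, 38 lost their call, 15 gained one and 0 turned sign after a call, and 43 values that were never called changed sign.

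The study describes 1 pool of mice per replicate. Whether arrays of different groups with the same replicate number shared a pool or a day is not stated outright. Deviations from the group means correlated by 0.32 to 0.44 between the 6 pairs of groups. With the replicate block, members called were 5 over both treatments (Hs3st1, Hs6st2 and Ndst2 were added, with adjusted p = 0.0284, 0.0233 and 0.0218), 3 with vehicle (Ndst1 and Hs6st2 were added, 0.0096 and 0.0080), 3 with E2 (Hs3st1 was added, 0.0180), 1 for E2 with FOXL2 siRNA, 2 for FOXL2 siRNA with vehicle against control siRNA with E2 and 2 for the other cross comparison, and the counts for E2 with control siRNA and for the difference of the E2 effects stayed at 1. All genes called rose with the block from 1968 to 4331 over both treatments, from 1023 to 2933 with vehicle and from 687 to 2333 with E2. Leaving out 1 array gave 1182 to 1882, 309 to 919 and 130 to 629. For FOXL2 siRNA with vehicle against control siRNA with E2, 732 genes became 2706 with the block, 135 to 734 without 1 array, 456 with no filter, 410 without the intensity trend and 375 by the study's rule. For the other cross comparison, 755 became 2518, 136 to 558, 459, 398 and 358. The study's rule gave 462 genes with vehicle and 371 with E2. The counts for E2 rest on few genes: 2 with FOXL2 siRNA, 3 with control siRNA and 38 for the difference became 96, 182 and 332 with the block and 0 to 4, 0 to 5 and 4 to 10 without 1 array.

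Exchanging the treatment labels of the control arrays, an alternative chosen after seeing the data, turns the E2 difference of Hs3st6 with control siRNA to 2.76 and the difference of its E2 effects to -0.56.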
